A study of Mus musculus with 4 samples.

Results

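The paired miR-23, miR-27 and miR-24 clusters were followed across PACs of healthy mice and of mice with 3 classical cardiovascular risk factors (CRFs). Members were found by name: 9 of the 568 listed miRs are an arm of miR-23a, miR-23b, miR-27a, miR-27b or miR-24. They comprise 5 miRs of the 3p arm, which is the guide strand here, and 4 of the 5p arm, the passenger strand. The passenger strands of miR-24, miR-24-1-5p and miR-24-2-5p, are not listed, so its arms could not be compared. PACs are proangiogenic cells that adhere to fibronectin when bone marrow is cultured, here for 4 days after isolation 2 days after removal of the femoral artery. All mice therefore had hindlimb ischemia. CTL mice were healthy C57Bl/6 mice aged 2 months, and aging mice were C57Bl/6 mice aged 16 months. SMK mice were C57Bl/6 mice aged 2 months, exposed to cigarette smoke starting 14 days ahead of surgery. HC mice were hypercholesterolemic APOE-/- mice aged 2 months, fed Western-type diet starting 5 weeks ahead of surgery, so genotype and diet cannot be told apart. Each condition had 1 library made from pooled RNA, the labels giving 6 pooled samples for CTL, 4 each for SMK and HC, and 2 for aging, whereas the methods give 4 to 6 per group.

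The deposited values are RPM, reads of a miR scaled to the library's total. They fall in whole steps, which give back totals of 2541732 counts in CTL, 1670010 in SMK, 1038986 in HC and 1568958 in aging. The study lists more miRNA reads than this for every library, with the largest relative gap in HC. Why the totals differ is not given in the sources used here. With 1 library per condition no test between conditions was possible, and no p-value is given. A range in parentheses is an exact 95% interval that covers counting error alone. Spread among mice, cultures or amplification is not in it, so it speaks of the libraries and not of the conditions. Marker miRs of myeloid cells summed to between 60382 and 77106 RPM per library and those of endothelial cells to between 13795 and 33683 RPM. None of either list was at 0, but neither was any other listed miR, so this does not show that a cell type is present. In such bulk libraries, more cells of a type and more of a miR per cell cannot be told apart.

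The clusters are 2 copies of the same order of hairpins, each processed from a common primary transcript. MiR-23 and miR-27 act in endothelial cells, where they favor sprouting by repressing Sprouty2 and Sema6a, inhibitors of MAPK and VEGF signaling. MiR-27 also represses lipid genes such as Pparg and Abca1, and miR-24 represses Gata2 and Pak4 and restrains endothelial growth. In the bone marrow, the miR-23a cluster is under the control of the myeloid factor PU.1 and favors myeloid over lymphoid fates.

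The mature sequences are shown because they set which members can be told apart and which share targets. They are from RefSeq (GRCm38.p6), 5′ to 3′, with the seed, bases 2 to 8, in capitals.
miR-23a-3p: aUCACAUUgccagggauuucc
miR-27a-3p: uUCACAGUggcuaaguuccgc
miR-27b-3p: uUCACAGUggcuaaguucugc
miR-24-3p: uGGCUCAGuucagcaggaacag
MiR-27a-3p and miR-27b-3p share their seed and differ by 1 base (C19U, counted from the 5′ end of miR-27a-3p), so a read that ends before that base fits either. The seed of miR-23a-3p differs from that of miR-27a-3p by U7G. No other listed miR with a sequence carried any of these seeds. MiR-24-3p has the same sequence in both clusters, so its level cannot be split between them.

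For miR-23a-3p and miR-23b-3p the hairpins are shown, since both guide strands come from nearly the same stretch. Capitals mark the longest stretch that the hairpins share, 20 bases, which holds 18 of the 21 bases of miR-23a-3p.
Mir23a: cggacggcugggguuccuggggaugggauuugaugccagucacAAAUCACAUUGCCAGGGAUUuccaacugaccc
Mir23b: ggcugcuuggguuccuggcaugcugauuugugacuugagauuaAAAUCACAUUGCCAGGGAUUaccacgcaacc
The passenger strands differ more between the copies and are shown because they can be assigned to 1 cluster each.
miR-23a-5p: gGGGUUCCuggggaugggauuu
miR-23b-5p: gGGUUCCUggcaugcugauuu
miR-27a-5p: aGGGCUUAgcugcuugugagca
miR-27b-5p: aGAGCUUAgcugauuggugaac

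Mir23a, Mir27a and Mir24-2 lie within 404 bases of the plus strand of chromosome 8 (84208518 to 84208921, GRCm38). Mir23a and Mir27a overlap no other annotated gene there, and the last bases of Mir24-2 overlap the exon of the long noncoding RNA Gm26532. Mir23b, Mir27b and Mir24-1 lie within 792 bases of the plus strand of chromosome 13 (63300484 to 63301275), inside the protein-coding gene 2010111I01Rik. Mir23b is intronic in all 9 of its transcripts that span it. Mir27b overlaps an exon in 1 of 9 and Mir24-1 in 4 of 11 transcripts, none of them with a protein-coding label. An intron of Fancc, a DNA repair gene, runs on the opposite strand.

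MiR-27b-3p, the most abundant member in each library, was at 7740 RPM in CTL, 8052 in SMK, 7530 in HC and 11842 in aging. MiR-23a-3p was at 3377 RPM in CTL, 5714 in SMK, 6361 in HC and 8204 in aging. Aging was the highest library for each of them in RPM, and CTL was the lowest for miR-23a-3p but not for miR-27b-3p. MiR-24-3p was at 2353 RPM in CTL, 4337 in SMK, 4303 in HC and 4965 in aging. MiR-27a-3p was at 1928 RPM in CTL, 2271 in SMK, 1865 in HC and 2744 in aging. MiR-23b-3p was at 1263 RPM in CTL, 2479 in SMK, 2820 in HC and 3748 in aging. By RPM, CTL was the lowest library for both miR-23 members and miR-24-3p, while HC was the lowest for both miR-27 members. With another scaling, in which the recovered counts were divided by the total reads sequenced per library, as the study lists them (here called recovered counts per total reads), HC was instead below CTL for all 5. Scaling by the study's own share of miRNA reads among total reads kept HC above CTL for miR-23a-3p (1.16-fold), miR-23b-3p (1.38-fold) and miR-24-3p (1.13-fold). The 5 guide strands took 1.67% of the CTL library, 2.29% of each of SMK and HC, and 3.15% of aging.

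**Figure D1:**
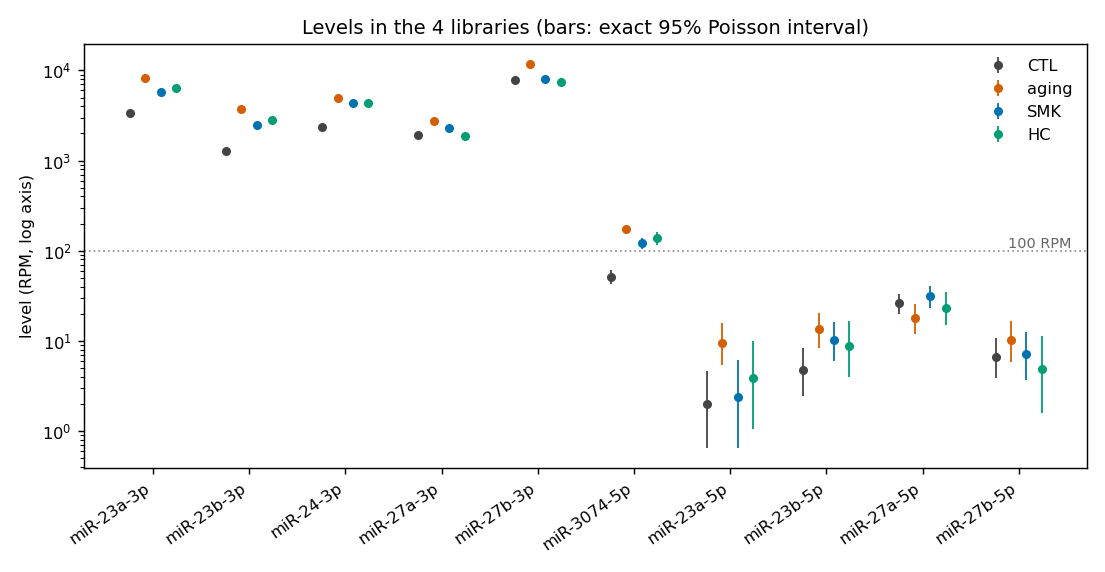
Level of each member, and of miR-3074-5p from the opposite strand of miR-24, in RPM on a log axis in the 4 libraries; points are single pooled libraries and bars exact 95% Poisson intervals for counting error. MiR-23a-3p, miR-23b-3p and miR-24-3p are lowest in CTL (in HC below CTL with recovered counts per total reads), and the 4 passenger strands lie far below 100 RPM.

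In RPM, the order of the libraries was the same for miR-23a-3p and miR-23b-3p, with CTL lowest, then SMK, HC and aging. Each neighboring pair was apart by more than counting error. With recovered counts per total reads, HC lay below SMK instead. The folds over CTL were then 0.831 in HC and 1.19 in SMK for miR-23a-3p, and 0.985 and 1.38 for miR-23b-3p. For miR-24-3p, HC and SMK could not be ordered in RPM (1.01-fold, 0.971 to 1.05). With recovered counts per total reads its folds over CTL were 0.807 in HC and 1.30 in SMK. For miR-27a-3p the lowest pair, HC and CTL, could not be ordered (1.03-fold, 0.981 to 1.09). For miR-27b-3p the same pair was barely apart (1.03-fold, 1.001 to 1.06). Among all miRs, miR-23b-3p held rank 48 in CTL and of rank 30 in aging, whereas miR-27b-3p held rank 17 in CTL and rank 16 in aging.

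To see how aging related to these clusters, the aging library was set against CTL. MiRs with at least 100 RPM in either library are called tested here, though a single library allows no test of the condition, and a fold above 1.6-fold was taken as higher and below 0.8-fold as lower, the limits of the study. MiR-23b-3p (2.97-fold, 2.84 to 3.10), miR-23a-3p (2.43-fold, 2.36 to 2.497) and miR-24-3p (2.11-fold, 2.04 to 2.18) were higher. MiR-27b-3p (1.53-fold, 1.499 to 1.56) and miR-27a-3p (1.42-fold, 1.37 to 1.48) lay above CTL in RPM by more than counting error but under the limit, and below CTL with recovered counts per total reads (0.865 and 0.805-fold). Of the 5 tested members 3 were higher and none was lower, against 33.1% higher and 26.6% lower of all 154 tested miRs. Of those 154, 51 were higher and 41 lower, against 42 and 51 with scaling by the median ratio and 31 and 64 with a trimmed mean of log ratios. The members' median log2 fold was 1.08, against 0.24 for all tested miRs (SD across miRs 0.96). MiR-23b-3p ranked 13 and miR-27a-3p ranked 63 of 154 by fold. Recovered counts per total reads ended the calls of miR-23a-3p (1.37-fold) and miR-24-3p (1.19-fold), and scaling by the share of miRNA reads among total reads ended that of miR-24-3p (1.43-fold).

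Smoke exposure was addressed by the SMK library. MiR-23b-3p (1.96-fold of CTL, 1.87 to 2.06), miR-24-3p (1.84-fold, 1.78 to 1.91) and miR-23a-3p (1.69-fold, 1.64 to 1.74) were higher. MiR-27a-3p was at 1.18-fold (1.13 to 1.23) and miR-27b-3p at 1.04-fold (1.02 to 1.06), within the limits in RPM and below CTL with recovered counts per total reads (0.829 and 0.732-fold). Again 3 of 5 members were higher and none lower, against 20.5% higher and 14.4% lower of all 146 tested miRs. Of those 146, 30 were higher and 21 lower, against 23 and 32 by the median ratio and 17 and 39 by the trimmed mean. The members' median log2 fold was 0.76, against 0.20 for all tested miRs (SD across miRs 0.54). The call of miR-23a-3p ended with scaling by the median ratio (1.52-fold), and all 3 calls ended with scaling by the share of miRNA reads (1.25 to 1.45-fold) and with recovered counts per total reads (1.19 to 1.38-fold).

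In the HC library, miR-23b-3p (2.23-fold of CTL, 2.12 to 2.35), miR-23a-3p (1.88-fold, 1.82 to 1.95) and miR-24-3p (1.83-fold, 1.76 to 1.90) were higher in RPM, although with recovered counts per total reads they lay below CTL (0.985, 0.831 and 0.807-fold). MiR-27b-3p was at 0.973-fold of CTL (0.948 to 0.999) and miR-27a-3p at 0.967-fold (0.917 to 1.02), within the limits in RPM but lower with recovered counts per total reads (0.429 and 0.427-fold) and after removal of a GC trend (0.687 and 0.571-fold). With recovered counts per total reads, however, 115 of all 158 tested miRs were lower and 14 higher. After GC removal 49 of 141 were lower and 22 higher. The counts were 3 higher and none lower of 5 members, against 34.8% higher and 18.4% lower of all 158 tested miRs. Of those 158, 55 were higher and 29 lower, against 46 and 43 by the median ratio and 33 and 67 by the trimmed mean. The members' median log2 fold was 0.87, against 0.32 for all tested miRs (SD across miRs 1.03). With a trimmed mean of log ratios only miR-23b-3p remained higher, and miR-27a-3p (0.720-fold) and miR-27b-3p (0.725-fold) were lower. With scaling by the share of miRNA reads none was higher, and miR-27a-3p (0.597-fold) and miR-27b-3p (0.6003-fold) were lower, against 27 higher and 87 lower of all 158 tested miRs. MiR-23b-3p (1.38-fold), miR-23a-3p (1.16-fold) and miR-24-3p (1.13-fold) stayed above CTL with this scaling.

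**Figure D2:**
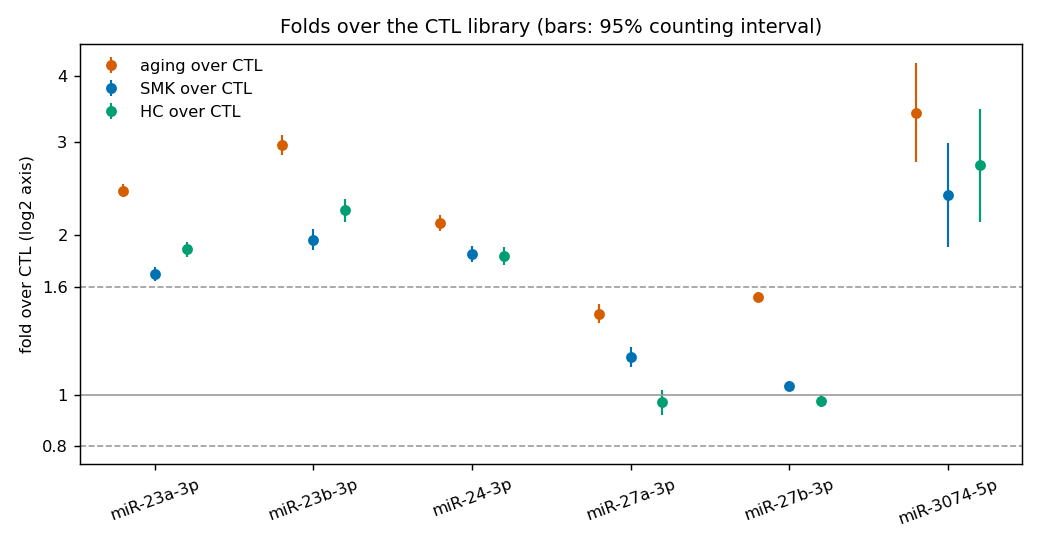
Fold of the 5 guide strands and of miR-3074-5p in aging, SMK and HC over CTL on a log2 axis; bars are exact 95% intervals for counting error, and dashed lines mark 0.8-fold and 1.6-fold. MiR-23a-3p, miR-23b-3p and miR-24-3p lie above 1.6-fold in each comparison in RPM (in HC below 1 with recovered counts per total reads), and both miR-27 members lie between 0.967-fold and 1.53-fold.

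The 3 comparisons share the CTL library, so the repeated position of a member in them is not independent. Between CRF libraries alone, miR-27b-3p was 1.57-fold (1.53 to 1.61) and miR-23a-3p 1.29-fold (1.25 to 1.33) higher in aging than in HC. Between HC and SMK, miR-23b-3p was at 1.14-fold (1.08 to 1.19) and miR-27a-3p at 0.821-fold (0.777 to 0.868). The direction for miR-23b-3p turned with recovered counts per total reads, which put it at 0.985-fold of CTL in HC and 1.38-fold in SMK, and with a trimmed mean the values were 1.66-fold and 1.67-fold. MiR-24-3p was at 0.992-fold (0.956 to 1.03) between these libraries. Since reads of near-identical miRs can be exchanged in mapping, the copies were also summed. The sum of miR-23a-3p and miR-23b-3p was 1.77-fold in SMK, 1.98-fold in HC and 2.58-fold in aging over CTL, and that of miR-27a-3p and miR-27b-3p was 1.07-fold, 0.972-fold and 1.51-fold.

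**Figure D3:**
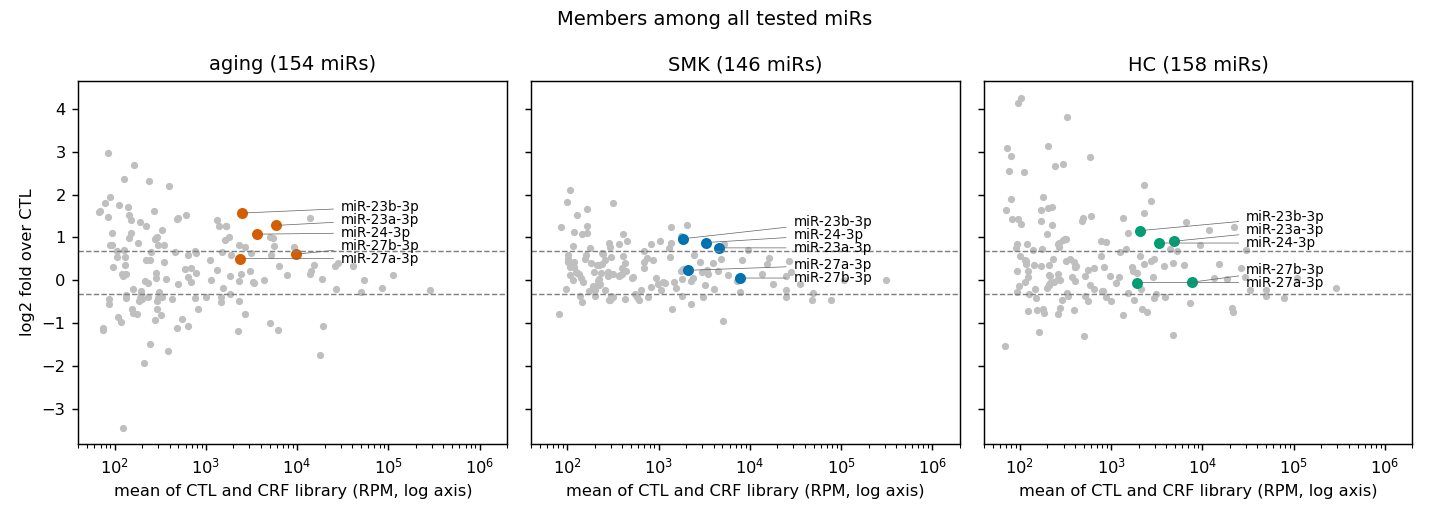
Log2 fold over CTL against the mean level of the CTL and CRF library in RPM on a log axis; each grey point is a tested miR, colored points are the 5 guide strands, and dashed lines mark the limits of 0.8-fold and 1.6-fold. The members lie within the cloud of all tested miRs, with miR-23b-3p the uppermost of them in each panel.

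The members of a cluster did not move by the same factor. Ratios within a library do not depend on the scaling between libraries. In CTL there were 2.08 counts of miR-27 guide strands for each count of miR-23 guide strands, against 1.22 in aging, 1.26 in SMK and 1.02 in HC. The share of miR-27 in the sum of miR-23 and miR-27 was 67.6% (67.1 to 68.1, Clopper-Pearson) in CTL and 54.96% (54.5 to 55.4) in aging. It was 55.8% (55.2 to 56.3) in SMK and 50.6% (49.9 to 51.3) in HC. CTL thus stood apart above all CRF libraries, HC lay below the others, and the intervals of aging and SMK overlapped. The odds of a count being miR-27 against CTL were 0.605 (0.586 to 0.624) in SMK, 0.491 (0.474 to 0.509) in HC and 0.586 (0.569 to 0.603) in aging.

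The shift was seen in either cluster, by the counts as mapped. For the chromosome 8 copy, the ratio of miR-27a-3p to miR-23a-3p was 0.571 in CTL, 0.398 in SMK, 0.293 in HC and 0.335 in aging. For the chromosome 13 copy, the ratio of miR-27b-3p to miR-23b-3p was 6.13 in CTL, 3.25 in SMK, 2.67 in HC and 3.16 in aging. With the share of miR-27 in the sum of miR-23 and miR-27 included, all 9 odds ratios against CTL had intervals below 1. They are not independent, since they share the CTL library and that sum reuses the counts of both copies. MiR-27b-3p made up 46.5% of the 5 guide strands in CTL, 35.2% in SMK, 32.9% in HC and 37.6% in aging. How well each sequence is captured in a library was not measured, so a ratio between miRs of one library describes counts, not molecules per cell.

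Between near-identical copies the odds lay nearer to those of CTL. MiR-23b-3p made up 27.2% (26.4 to 28.0) of the miR-23 guide strands in CTL, 31.4% (30.7 to 32.0) in aging, 30.3% (29.5 to 31.0) in SMK and 30.7% (29.8 to 31.7) in HC. The odds were 1.22 times those of CTL (1.16 to 1.29) in aging, 1.16 times (1.10 to 1.23) in SMK and 1.19 times (1.12 to 1.26) in HC. MiR-27b-3p made up 80.1% (79.6 to 80.6) of the miR-27 guide strands in CTL, 81.2% (80.7 to 81.7) in aging, 78.0% (77.4 to 78.6) in SMK and 80.1% (79.3 to 80.9) in HC. By the counts as mapped, miR-23b-3p therefore had a larger part of miR-23 in each CRF library than in CTL. The part of miR-27b-3p in miR-27 was above CTL in aging, below it in SMK and not distinguishable from it in HC (odds ratio 1.01, 0.948 to 1.07). Since reads of near-identical miRs can be exchanged in mapping, these shares need not give the part of each locus. The share of miR-24-3p in the sum of miR-23 and miR-24-3p was 33.6% in CTL, 34.6% in SMK, 31.9% in HC and 29.3% in aging. Against CTL the odds were 0.819 (0.786 to 0.854) in aging, 0.924 (0.882 to 0.969) in HC and 1.04 (1.001 to 1.09) in SMK, so this share had no common direction.

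**Figure D4:**
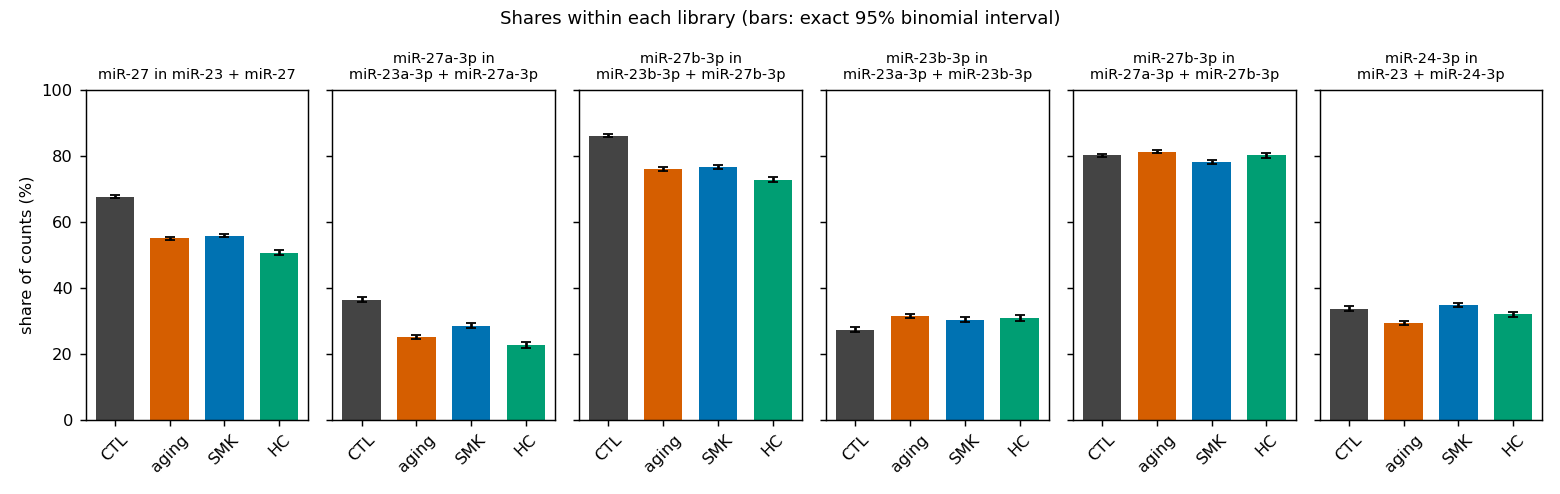
Share of counts in percent within each library for 6 pairs of members or sums of members; bars are the 4 libraries and error bars exact 95% binomial intervals for counting error. The share of miR-27 is 67.6% in CTL and between 50.6% and 55.8% in the CRF libraries, while miR-27b-3p stays between 78.0% and 81.2% of the miR-27 guide strands.

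All 4 listed passenger strands, those of miR-23 and miR-27, were under 100 RPM in every library. MiR-27a-5p was the most abundant, with 66 counts in CTL (25.97 RPM), 52 in SMK (31.1 RPM), 24 in HC (23.1 RPM) and 28 in aging (17.8 RPM). Its level in RPM was lowest in aging, the library in which its guide strand was highest. Aging was below SMK by more than counting error (0.573-fold, 0.349 to 0.924). Aging could not be ordered against HC (0.773-fold, 0.432 to 1.39) or CTL (0.687-fold, 0.425 to 1.08). MiR-23a-5p had 5, 15, 4 and 4 counts in CTL, aging, SMK and HC, miR-23b-5p 12, 21, 17 and 9, and miR-27b-5p 17, 16, 12 and 5. At this depth most of these levels could not be ordered. Of 24 comparisons between libraries over the 4 strands, 4 had an interval that left out 1, among them aging over CTL for miR-23a-5p (4.86-fold, 1.68 to 17.1) and miR-23b-5p (2.84-fold, 1.33 to 6.32).

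The share of the passenger strand in its hairpin was 1.33% (1.03 to 1.69) for miR-27a in CTL and 0.646% (0.430 to 0.932) in aging. It was 1.35% (1.01 to 1.77) in SMK and 1.22% (0.785 to 1.81) in HC. The odds in aging were 0.483 times those in CTL (0.298 to 0.764), and of 12 such comparisons with CTL over the 4 hairpins this was the 1 whose interval left out 1. The passenger share was at most 0.409% for miR-23b, 0.116% for miR-23a and 0.0892% for miR-27b in any library.

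The strand opposite miR-24 was also read. MiR-3074-5p is encoded on the minus strand of both loci and overlaps miR-24-3p by 20 bases, with a reverse complementary sequence.
miR-3074-5p: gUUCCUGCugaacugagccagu
It was at 50.8 RPM in CTL, 121 in SMK, 138 in HC and 173 in aging. CTL was the lowest library, as for miR-24-3p. The fold reached 3.40 (2.75 to 4.23) in aging, 2.38 (1.90 to 2.996) in SMK and 2.71 (2.12 to 3.47) in HC, on 129 counts in CTL. It was tested only through the CRF libraries, so with 100 RPM required in CTL it had no call in any of the 3 comparisons. In HC the call also ended with recovered counts per total reads (1.197-fold) and after removal of a GC trend (1.48-fold). Its share in the sum with miR-24-3p was 2.11% (1.77 to 2.504) in CTL, 2.71% (2.36 to 3.11) in SMK, 3.10% (2.62 to 3.64) in HC and 3.36% (2.98 to 3.78) in aging. Further off, 29573 bases before the chromosome 8 cluster on the minus strand, begin miR-181c and miR-181d, whose 5p arms were under 100 RPM in every library. MiR-181d-5p was at 14.2 RPM in CTL, 24.6 in SMK, 37.5 in HC and 39.5 in aging.

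Likeness to a member was measured as the largest of 3 differences in log2 fold, over 123 miRs with 100 RPM in all 4 libraries. The nearest to miR-23a-3p was miR-181b-5p (2.25, 1.82 and 1.92-fold in aging, SMK and HC), within 0.11 on the log2 scale. MiR-181b-5p was also the nearest to miR-24-3p (within 0.09), and miR-24-3p and miR-23a-3p were among the 3 nearest of each other (0.20). MiR-27a-3p and miR-27b-3p were likewise among the 3 nearest of each other (0.18). No miR-27 member was among the 3 nearest of a miR-23 member, and the nearest to miR-23b-3p was miR-1198-5p (0.21).

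Properties of the libraries moved with these results. Across tested miRs, Pearson's r between the log2 fold and the GC content of the mature sequence was 0.37 over 138 miRs in aging, 0.48 over 132 in SMK and 0.57 over 141 in HC. These are correlations across miRs that share the same libraries and are given as a description. MiR-23a-3p and miR-27b-3p have the same GC content, 47.6%, and their folds were 1.69 and 1.04 in SMK, 1.88 and 0.973 in HC, and 2.43 and 1.53 in aging. Other tested miRs with 45 to 50% GC had a median log2 fold of 0.36 in SMK (35 miRs), 0.45 in HC (37 miRs) and 0.28 in aging (35 miRs). With a linear GC trend taken out, which also centers the log2 folds, miR-23a-3p remained higher in aging but not in SMK (1.38-fold) or HC (1.33-fold), and miR-24-3p in none (1.43-fold in aging). MiR-24-3p has a GC content of 54.5% and miR-27a-3p of 52.4%.

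Marker miRs of other cell types also differed between libraries. The 5 stromal markers summed to 36417 RPM in CTL, 31326 in SMK, 23040 in HC and 12457 in aging. The 2 endothelial markers, the arms of miR-126a, summed to 29076 RPM in CTL, 33683 in SMK, 18424 in HC and 13795 in aging. The 5 myeloid markers summed to 60382 RPM in CTL, 67362 in SMK, 70572 in HC and 77106 in aging. By these sums in RPM, CTL was the lowest library for myeloid markers and the highest for stromal markers. No marker of these lists was at 0, but no listed miR of any kind was. Single markers departed from the sums. The myeloid miR-142a-3p was at 36128 RPM in CTL, 33972 in SMK, 30954 in HC and 45474 in aging. The stromal miR-145a-5p was at 364, 483, 384 and 194 RPM. Recovered counts per total reads multiply folds by 0.704 in SMK, 0.441 in HC and 0.566 in aging. With them, CTL would be the highest library for the myeloid sum. The 3 listed of 4 erythroid markers summed to between 11.5 and 96.2 RPM, the lymphoid miR-150-5p was at 35.6 to 43.1 RPM, and the 4 epithelial markers summed to between 248 and 301 RPM. The stromal and angiogenesis lists share miR-214-3p, and the latter also holds both arms of miR-126a. The part of these cell types in the levels of miR-23, miR-27 and miR-24 was not tested.

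For context, a list of 30 miRs known to act in angiogenesis was followed, of which 27 were listed. In aging, 6 of 22 tested members were higher and 9 lower, against 33.1% and 26.6% of all tested miRs, from miR-10b-5p (581 to 187 RPM) to miR-222-3p (311 to 889 RPM), which restrains c-Kit. In SMK, 6 of 23 were higher and 3 lower, against 20.5% and 14.4% of all tested miRs, from miR-19a-3p (171 to 120 RPM) to miR-92a-3p (811 to 1931 RPM), an inhibitor of angiogenesis. In HC, 6 of 23 were higher and 8 lower, against 34.8% and 18.4% of all tested miRs, from the hypoxia-induced miR-210-3p (230 to 137 RPM) to miR-92a-3p (811 to 3760 RPM). The median log2 fold of the list was 0.14 in SMK, -0.06 in HC and -0.09 in aging, against medians of 0.20, 0.32 and 0.24 for all tested miRs and 0.76, 0.87 and 1.08 for the 5 tested cluster members.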

How the data were processed

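RNA of PACs was pooled within each group before library preparation, and 4 libraries were made with a QIAseq kit. The authors normalized mature miR reads by library size, and RPM is the deposited unit. Per the methods, reads were mapped with bowtie in steps to miRBase version 21, first with perfect matches and last with up to 2 mismatches, so reads of near-identical miRs can be exchanged. The submitters' processing notes name bcl2fastq 2.20, TopHat2 2.0.10 and HTSeq 0.5.4 instead, with mm10. Whether reads with the same molecular identifier were merged is not given in the sources used here.

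Each value was divided by the smallest of its library, which gave whole counts for 100% of values (tolerance 0.001 count). A count was worth between 0.393 and 0.962 RPM. A count test needs replicates and was not run. Fold intervals are conditional binomial, share intervals Clopper-Pearson, and odds ratios conditional exact. They cover counting error only. Members were every row named for an arm of the 5 miRs, and likeness named the 3 nearest miRs per member. Members and lists were chosen with earlier results of these data known. Of 568 miRs, 487 matched a mature RefSeq sequence (GRCm38.p6), as did 8 of 9 members. Gene overlaps are from GENCODE release 21 for mouse. The alternatives were 5 scalings (2 of them on the total reads and miRNA reads of the study's read table), of which that by the share of miRNA reads was chosen after seeing the data, pseudocounts of 1 and 10 RPM, other minimums and limits, summing near-identical miRs, and removal of a GC trend. Python 3.11.15, numpy 2.4.6, scipy 1.17.1, pandas 2.3.3, matplotlib 3.10.9, R 4.3.3 and edgeR 4.0.16 (trimmed mean only) were used.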

Additional observations from a re-analysis of the deposited data

How the results depend on the processing

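The median ratio, a trimmed mean of log ratios, recovered counts per total reads and the share of miRNA reads lowered every fold, by 0.16, 0.24, 0.51 and 0.43 on the log2 scale in SMK, 0.15, 0.43, 1.18 and 0.70 in HC, and 0.15, 0.39, 0.82 and 0.56 in aging. They leave shares within a library untouched. In aging, 1 member was past the limits with recovered counts per total reads, where 15 of 154 tested miRs were higher and 91 lower. It was 1 of 4 after GC removal, against 23 higher and 40 lower of all 138. With no minimum it was 6 of 9, under which 236 of all 568 miRs were higher and 141 lower. In SMK it was 1 with a trimmed mean, against 17 higher and 39 lower of all 146 tested miRs. It was 1 (lower) with recovered counts per total reads, against 9 higher and 72 lower of 146. With the share of miRNA reads it was 1 (lower), against 10 higher and 60 lower of 146. With limits of 0.6 and 2-fold it was 0, against 14 higher and 2 lower of 146. After GC removal it was 0 of 4, against 10 higher and 30 lower of 132. In HC it was 6 of 9 with no minimum, under which 247 of all 568 miRs were higher and 128 lower. With limits of 0.6 and 2-fold it was 1, against 35 higher and 8 lower of all 158 tested miRs. The 3 calls became 1 higher and 2 lower with a trimmed mean, against 33 higher and 67 lower of 158. With recovered counts per total reads in HC, miR-23a-3p (0.831-fold), miR-23b-3p (0.985-fold) and miR-24-3p (0.807-fold) fell below CTL, as did miR-24-3p after GC removal (0.995-fold). Fewer miRs have a GC value, and miR-23b-3p has none. The higher call of miR-23b-3p in aging held in all 11 alternatives it was given (1.68 to 2.97-fold). The pseudocounts and other minimums among them could not have ended it at 1263 RPM in CTL and 3748 in aging. Removal of the GC trend was not among them. A pseudocount of 10 RPM moved none of the shares in the guide strands beyond its interval. It could hardly do so, with each guide strand at 1263 RPM or more. Depth limits the passenger strands, at 4 to 66 counts. No paired analysis was possible because each condition had 1 library.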
